A study of Homo sapiens with 12 samples.

Results

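Interferon-gamma (IFNγ) switched on IDO1, raised WARS1 and raised KYAT3 in SK-N-DZ neuroblastoma cells. KMO and KYNU, which take kynurenine towards quinolinic acid and NAD, stayed at 0 to 14 reads per library. IDO1 went from 0 reads in all 6 libraries without IFNγ to a mean of 70.2 counts per 1000000 (CPM) ± 31.2 (SD, n = 3). WARS1 rose 15.9-fold, from 55.6 ± 6.51 to 886 ± 280 CPM (SD, n = 3), and KYAT3 1.82-fold, from 20.4 ± 0.740 to 37.1 ± 5.46 CPM (SD, n = 3). KYAT3 overlaps RBMXL1 on the same strand with 469 shared exonic bases, and RBMXL1 also rose with IFNγ. Reads from the shared part cannot be assigned to either gene with certainty. For IFNγ alone, only WARS1 passed the test without replicate number 1 in every group, and only IDO1 and WARS1 without number 2. With doxycycline added to IFNγ, IDO1 averaged 23.4 ± 14.0 CPM (SD, n = 3), 0.333 of its level with IFNγ alone. That difference passed the test only in a model that included the replicate number.

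The genes described are 8 of the 43769 in the count table, taken by symbol for their known place in the use of tryptophan: IDO1, IDO2, TDO2, AFMID, KYAT3, KMO, KYNU and WARS1. The choice used no threshold on a measured value, but it was made with earlier results of these data known.

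RNA sequencing libraries of total RNA, 12 in all, were made from SK-N-DZ, a MYCN-amplified human neuroblastoma line. Per the study's text, the cells were a clonal line under puromycin selection. It carries a lentiviral, doxycycline-inducible hairpin against ARID1A, a subunit of the SWI/SNF chromatin remodeller. The study describes more than 1 such hairpin and clone and does not say which was sequenced. The labels define 4 groups of 3 libraries. C received neither agent and I received IFNγ for 24 hours, and the labels give both the genotype WT. D received doxycycline for 4 days and DI received doxycycline for 4 days with IFNγ for 24 hours, and the labels give both the genotype shARID1A. The study's text does not give the same length of doxycycline treatment throughout, and the length printed here is that of the labels. No group received doxycycline without the hairpin, so the effect of the drug and that of the hairpin cannot be told apart. The labels do not say that the 3 libraries of a group came from separate cultures, so the p-values measure only the spread between these libraries.

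Tryptophan is the least abundant essential amino acid in most proteins, and cells use it for protein synthesis, for serotonin and, mainly, for the kynurenine pathway. IDO1, IDO2 and, in liver, TDO2 open its indole ring to give N-formylkynurenine, and AFMID removes the formyl group to leave kynurenine. KYAT3 is one of the aminotransferases that turn kynurenine into kynurenic acid, whereas KMO hydroxylates it and KYNU cleaves it on the way to quinolinic acid and NAD. IDO1 is known as an interferon-induced enzyme of tumours and antigen-presenting cells that starves nearby T cells of tryptophan. WARS1 is the cytosolic tryptophanyl-tRNA synthetase, which charges tRNA with tryptophan and is itself known to be interferon-induced.

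In the GENCODE 29 annotation of GRCh38, IDO1 spans chr8:39902275-39928444 on the plus strand, and IDO2 begins 6170 bases past its end on the same strand. WARS1, listed there as WARS, spans chr14:100333788-100376805 on the minus strand, and KYAT3 spans chr1:88935773-88992953 on the minus strand. AFMID lies at chr17:78187317-78207701, KMO at chr1:241532134-241595642, KYNU at chr2:142877498-143055832 and TDO2 at chr4:155854738-155920406, all on the plus strand.

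RefSeq (GRCh38.p14) promoter windows, 250 bases before to 50 after a transcript start, were matched for 6 of the 8 genes, AFMID, KMO, KYAT3, KYNU, TDO2 and WARS1. The promoters of IDO1 and IDO2 were not analysed here. WARS1 has 2 of them, with starts 980 bases apart.

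The windows were searched on both strands for the core of the interferon-stimulated response element (GAAANNGAAA, the kind of site that IRF factors bind), for the gamma-activated site (TTCNNNGAA, an element found at IFNγ-responsive genes) and for TGATGNAA, the kind that ATF4 with a C/EBP partner binds. Of all 35116 RefSeq windows of 300 bases, 3.57% held the first, 7.66% the second and 3.62% the third. Of the windows of these 6 genes, only that of the downstream start of WARS1 held the response element core, 55 bases before the start, and it also held a gamma-activated site 142 bases before it, not overlapping the first. KYNU held 2 gamma-activated sites, and AFMID, KMO, TDO2, KYAT3 and the upstream start of WARS1 held none of the 3 motifs. A match is a description of the letters and not a shown binding site. The bases before both starts of WARS1 and before the start that KYAT3 shares with its neighbour RBMXL1 are printed below because WARS1 and KYAT3 are the genes among these 6 that passed the test in I against C. They read 5′ to 3′ along the gene's own strand, and capitals mark the matches.
WARS1 downstream start (chr14:100375348-100375597, minus strand): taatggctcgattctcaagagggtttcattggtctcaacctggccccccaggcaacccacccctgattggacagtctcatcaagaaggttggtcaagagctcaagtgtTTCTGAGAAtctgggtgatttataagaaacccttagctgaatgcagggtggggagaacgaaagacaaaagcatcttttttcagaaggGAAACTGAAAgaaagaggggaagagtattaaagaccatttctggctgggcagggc
WARS1 upstream start (chr14:100376328-100376577, minus strand): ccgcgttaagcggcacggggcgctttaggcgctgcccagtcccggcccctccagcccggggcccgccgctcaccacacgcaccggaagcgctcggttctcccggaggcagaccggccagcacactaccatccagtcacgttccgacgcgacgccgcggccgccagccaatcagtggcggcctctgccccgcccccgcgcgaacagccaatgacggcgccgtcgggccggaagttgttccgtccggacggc
KYAT3 and RBMXL1 shared start (chr1:88992630-88992879, minus strand): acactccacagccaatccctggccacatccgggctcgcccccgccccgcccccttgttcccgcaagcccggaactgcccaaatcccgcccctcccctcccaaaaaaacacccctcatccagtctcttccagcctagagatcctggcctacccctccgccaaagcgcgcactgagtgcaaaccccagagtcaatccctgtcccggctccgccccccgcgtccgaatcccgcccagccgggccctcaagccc

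The libraries held 16469832 to 21790869 counts, so that 3 reads, the level taken as the limit of detection, correspond to 0.135 to 0.187 CPM. These limits cover counting error only. ARID1A, the target of the hairpin, was at 165 to 197 CPM in C and 158 to 197 CPM in D, which overlap (log2 fold change -0.09, SE 0.11, adjusted p = 0.788). It was at 192 to 203 CPM in I and 133 to 151 CPM in DI, which do not overlap (-0.44, SE 0.11, adjusted p = 0.115, and 0.0111 with the replicate number as a block). All 10 adrenergic neuroblastoma markers averaged at least 1 CPM and together reached 4300 to 5697 CPM. The summed levels of 6 immune markers, at 0.198 to 1.25 CPM with 2 of them at 0 in every library, and of 4 hepatocyte markers, at 0.273 to 0.985 CPM with 2 at 0, were close to the detection limit in every group. The sum of 5 fibroblast markers was 27.9 to 97.6 CPM, with 43.1 to 66.6 CPM in C and 62.5 to 97.6 CPM in I, and its part in the results was not tested. In bulk RNA, fewer expressing cells and less RNA per cell cannot be told apart.

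**Figure D1:**
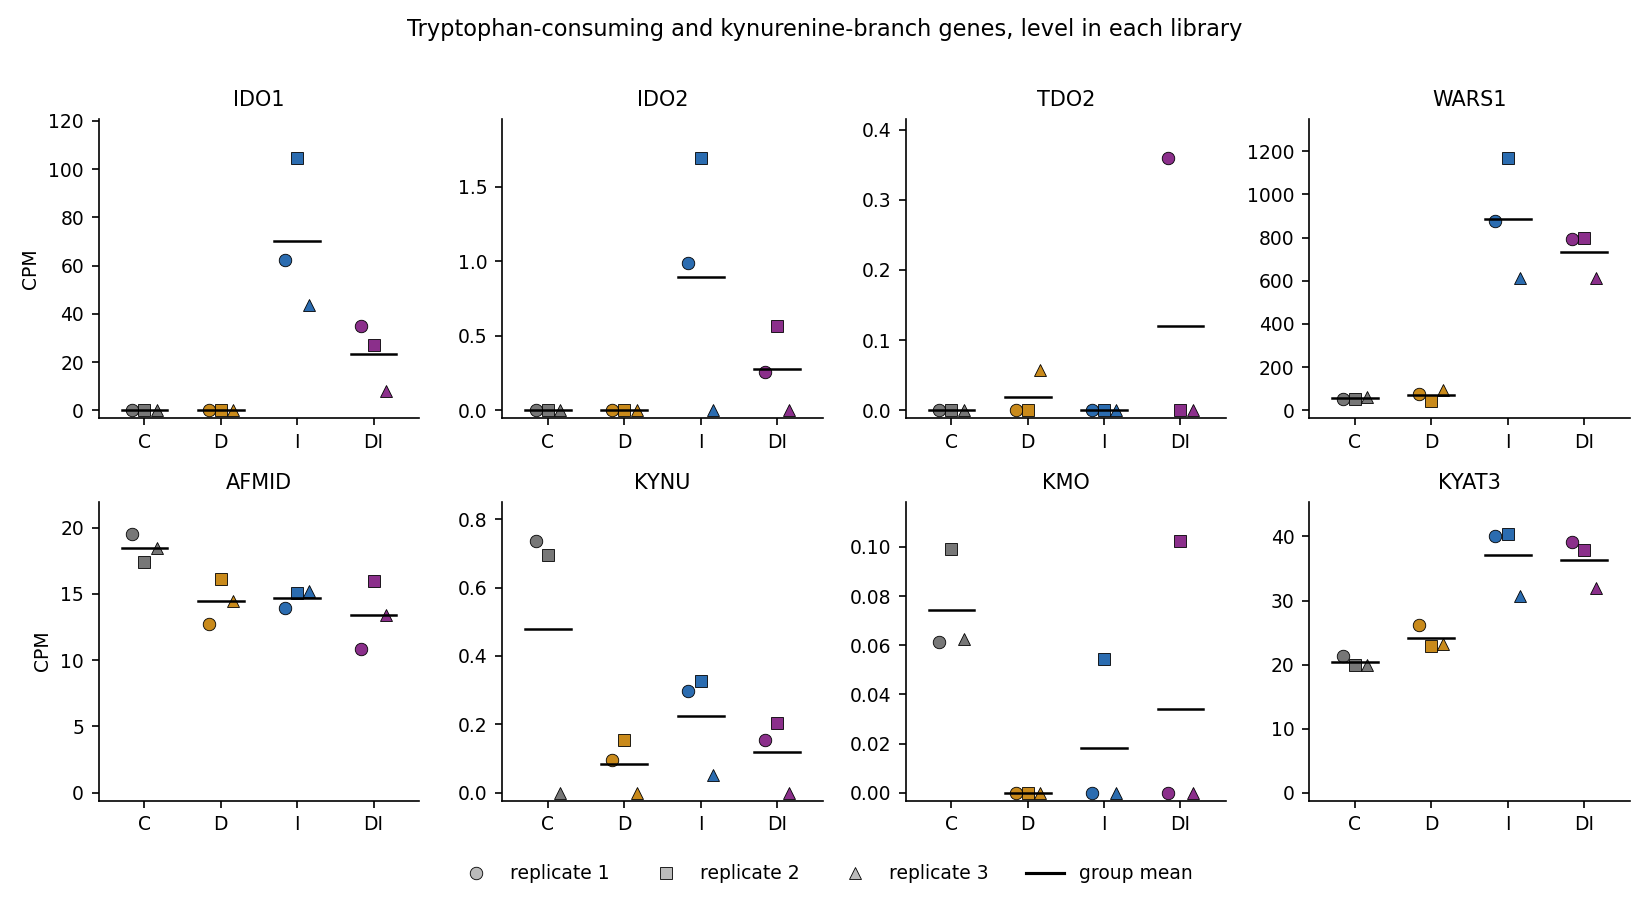
Level of each of the 8 genes in CPM (linear axes from 0, scaled per panel) in the 3 libraries of C, D, I and DI; symbols give the replicate number and bars the group mean. IDO1 is at 0 in C and D and at 7.88 to 105 CPM with IFNγ, WARS1 and KYAT3 are higher in I and DI than in C and D, and IDO2, TDO2, KYNU and KMO stay below 2 CPM.

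IDO1, the rate-limiting enzyme of the pathway outside the liver, had no read in the 3 C and the 3 D libraries, where the detection limit was 0.143 to 0.187 CPM. The I libraries held 1258, 1918 and 833 reads, or 62.3, 105 and 43.7 CPM. The DI libraries held 684, 529 and 175 reads, or 35.1, 27.1 and 7.88 CPM. Every IFNγ-treated library was thus far above every untreated one, and the highest DI library was below the lowest I library.

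Against the highest detection limit of a C library, the mean of I was at least 375-fold higher. Against that of a D library, the mean of DI was at least 135-fold higher. The edgeR quasi-likelihood test gave Benjamini-Hochberg adjusted p-values of 0.00161 in I against C and 0.00414 in DI against D. These test for any difference and not for the bounds. IDO1 passed the filter on low counts only through the libraries with IFNγ, so the p-values are no support beyond the reads. No change of IDO1 with doxycycline alone could be measured, since both C and D were at 0. Per kilobase of exon, IDO1 went from no reads to 21.5 ± 9.58 RPKM in I (SD, n = 3), rank 2294 of 15828 genes tested, and to 7.17 ± 4.29 RPKM in DI (SD, n = 3), rank 6114.

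IDO2, the neighbouring paralog of IDO1 with lower activity towards tryptophan, was also seen only with IFNγ but in few reads. It had 20, 31 and 0 reads in I, 5, 11 and 0 in DI, and none in C and D. Both libraries with replicate number 3 were at 0 although IDO1 was expressed there. Of the reads of both genes, IDO2 took 1.56% (exact Clopper-Pearson 95% interval 0.958 to 2.41) and 1.59% (1.08 to 2.25) in I replicates 1 and 2. In I replicate 3 it took 0 of 833 reads (interval 0 to 0.442%). These intervals cover counting error only, and the share was not tested between libraries. In DI the shares were 0.726% (0.236 to 1.69), 2.04% (1.02 to 3.62) and 0 of 175 reads (interval 0 to 2.09%). The reads of IDO1 and IDO2 cannot be assigned to one gene with certainty where the sequences are alike, since the counting of shared reads is not given in the sources used here. In I against C, the adjusted p of IDO2 was 0.441, and 0.0275 with the replicate number as a block (0.0275 to 1.00 over all 19 alternatives).

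TDO2, the liver dioxygenase, had 7 reads in DI replicate 1, 1 read in D replicate 3 and none in the other 10 libraries. It did not pass the filter on low counts and was not tested. IDO1 was therefore the only enzyme of the opening step above 2 CPM in any library.

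AFMID, the formamidase of the next step, was expressed in every library at 10.9 to 19.5 CPM. It stood at 19.5, 17.4 and 18.5 CPM in C, 12.7, 16.1 and 14.5 CPM in D, 13.9, 15.1 and 15.2 CPM in I, and 10.9, 15.9 and 13.4 CPM in DI. All 9 treated libraries were below the lowest C library, but none of the differences passed the test. In I against C the log2 fold change was -0.33 (SE 0.16, 95% interval -0.67 to 0.02, adjusted p = 0.679). In D against C it was -0.35 (SE 0.16, interval -0.70 to -0.01, adjusted p = 0.340). Groups that do not overlap in the lower direction were seen for 6.24% and 9.1% of all tested genes in these comparisons.

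KYAT3 was at 21.3, 20.0 and 20.0 CPM in C and 26.2, 23.0 and 23.2 CPM in D. It was at 40.1, 40.3 and 30.8 CPM in I and 39.1, 37.9 and 32.0 CPM in DI. All 6 libraries with IFNγ were above all 6 without it. Groups that do not overlap in the higher direction were seen for 8.84% of all tested genes in I against C and 5.77% in DI against D. The rise in I against C passed the test (log2 fold change 0.86, SE 0.14, 95% interval 0.56 to 1.16, adjusted p = 0.00433). In DI against D the ratio was 1.51-fold (0.59, SE 0.13, interval 0.29 to 0.89) and had an adjusted p of 0.0614, which fell to 0.00516 under the replicate block and 0.00484 in DESeq2, and to 0.0261 without I replicate 3 (0.00484 to 0.841 over all 21 alternatives). D was above C without overlap, as in 10.1% of all tested genes, and the difference did not pass the test (0.24, SE 0.13, adjusted p = 0.466).

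KMO, the monooxygenase, had 1, 2 and 1 reads in C, 1 read in I replicate 2, 2 reads in DI replicate 2 and none elsewhere, so that no library exceeded 3 reads. KYNU, the kynureninase, had 12, 14 and 0 reads in the C libraries and 2, 3 and 0 in the D libraries. It had 6, 6 and 1 reads in the I libraries and 3, 4 and 0 in the DI libraries. Neither passed the filter and neither was tested. As with IDO2, the libraries numbered 3 held almost none of the reads of KYNU, 1 of 51. OPN3 overlaps KMO on the other strand with 1691 shared exonic bases and was at 0.643 to 2.20 CPM, and the counting is not stated to have used the strand.

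WARS1 was at 50.9, 52.8 and 63.0 CPM in C and 877, 1171 and 611 CPM in I. It was at 74.3, 41.1 and 94.0 CPM in D and 793, 799 and 613 CPM in DI. The libraries with IFNγ did not overlap with those without it, as in 8.84% of all tested genes in I against C and 5.77% in DI against D for the higher direction. Within numbers 1, 2 and 3 the ratio of I to C was 17.2, 22.2 and 9.69. The change was 3.99 on the log2 scale in I against C (SE 0.32, 95% interval 3.28 to 4.71, adjusted p = 2.38e-05). It was 3.40 in DI against D, or 10.5-fold (SE 0.32, interval 2.70 to 4.09, adjusted p = 8.04e-05).

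Per kilobase of exon, WARS1 rose from 8.74 ± 1.02 RPKM, rank 5292 of 15828 genes, in C to 139 ± 44.1 RPKM, rank 221, in I (SD, n = 3). In C it stood level with KYAT3 at 8.85 ± 0.321 RPKM and above AFMID at 4.56 ± 0.261 RPKM. In I the order was WARS1, IDO1 at 21.5 ± 9.58 RPKM, KYAT3 at 16.1 ± 2.37 RPKM and AFMID at 3.64 ± 0.175 RPKM, and IDO1 and KYAT3 did not differ beyond their spread. In DI the order was WARS1 at 116 ± 16.6 RPKM, KYAT3 at 15.8 ± 1.65 RPKM, IDO1 at 7.17 ± 4.29 RPKM and AFMID at 3.31 ± 0.626 RPKM, and the last 2 did not differ beyond their spread.

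**Figure D2:**
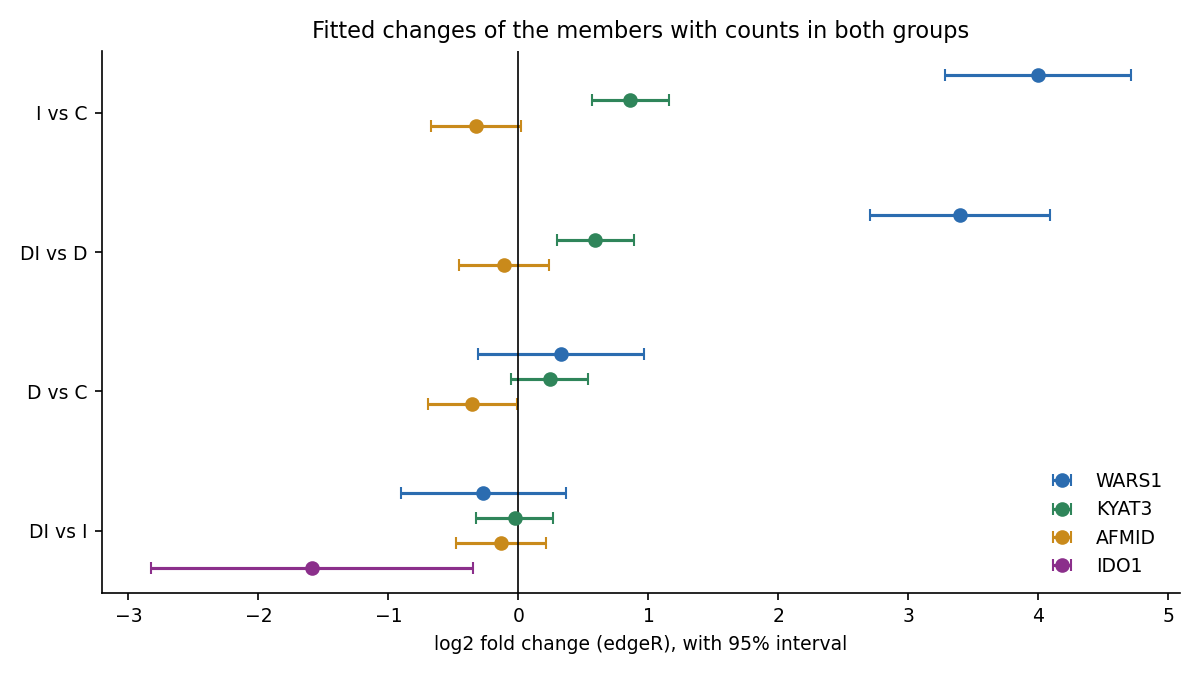
Fitted log2 fold changes of WARS1, KYAT3, AFMID and IDO1 in 4 comparisons, with 95% intervals derived from the edgeR test. IDO1 is drawn only for DI against I, since it is at 0 in C and D. WARS1 and KYAT3 lie above 0 in both comparisons with IFNγ, and only IDO1 has an interval away from 0 in DI against I, before adjustment for the 15828 genes tested.

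IFNγ alone asks which of these genes respond to the cytokine. Of the 8 genes, 5 passed the filter on low counts, and 3 of them, IDO1, WARS1 and KYAT3, were called higher in I against C, while 2.1% of all 15828 tested genes were called higher. IDO1 and IDO2 passed the filter only through the libraries with IFNγ, so this count is not a share of the pathway. With doxycycline present, DI against D called IDO1 and WARS1, against 1.67% of all tested genes called higher.

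Doxycycline alone was compared in D against C, the contrast that holds the effects of drug and hairpin together in cells without IFNγ. ARID1A itself was not called there by edgeR (log2 fold change -0.09, SE 0.11, adjusted p = 0.788). None of the 3 members with an estimate was called by edgeR, against 1.23% of all tested genes, and DESeq2 called none. At an unadjusted p under 0.05 there was 1 member (AFMID), beside 2248 of all 15828 tested genes. WARS1 was higher than its counterpart in numbers 1 and 3 of D and lower in number 2, giving 0.33 on the log2 scale (SE 0.29, 95% interval -0.31 to 0.97, adjusted p = 0.686).

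The contrast of DI with I compares IFNγ-treated cells with and without doxycycline, and it also holds any change that doxycycline makes without IFNγ. None of the 5 tested members was called by edgeR, against 0.67% of all tested genes, and DESeq2 called none. At an unadjusted p under 0.05 there was 1 member (IDO1), beside 1934 of all 15828 tested genes. IDO1 was lower in DI than in the I library of the same number by 1.77-fold, 3.86-fold and 5.54-fold. Its fitted change was -1.59 (SE 0.56, 95% interval -2.83 to -0.35, adjusted p = 0.326), and groups that do not overlap in the lower direction were seen for 8.41% of tested genes. With the replicate number as a block it was -1.73 with an adjusted p of 0.0180 (0.0180 to 0.841 over all 21 alternatives). Under that block 610 genes were called higher and 1048 lower in this contrast, against 16 and 90 without it (54 and 65 with scaling by library size alone).

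WARS1 was not called between the same groups, which does not show that its level was unchanged. Its ratio of I to DI was 1.11, 1.46 and 0.996 by number, and the fitted change was -0.27 (SE 0.29, 95% interval -0.90 to 0.36, adjusted p = 0.801). KYAT3 was at -0.03 (SE 0.13, interval -0.32 to 0.26, adjusted p = 0.971) and AFMID at -0.14 (SE 0.16, interval -0.48 to 0.21, adjusted p = 0.824). IDO2, with few reads, was at -1.70 (SE 1.47, adjusted p = 0.746).

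To set IDO1 beside other IFNγ-driven genes in the same library, its reads were counted per 100 WARS1 reads. The ratio was 7.10, 8.94 and 7.15 in I and 4.43, 3.39 and 1.29 in DI, which do not overlap. The means were 7.73 ± 1.05 and 3.04 ± 1.60 (SD, n = 3), and the exact two-sided permutation test gave p = 0.1, the smallest that 3 against 3 libraries allow. Per 100 reads of IRF1, a transcription factor that acts on many IFNγ targets, IDO1 took 17.3 ± 7.88 reads in I and 6.45 ± 3.86 in DI (SD, n = 3, exact permutation p = 0.1, no overlap). Adjusted over the 19 ratio and sum tests made, the smallest of these values was 0.19.

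**Figure D3:**
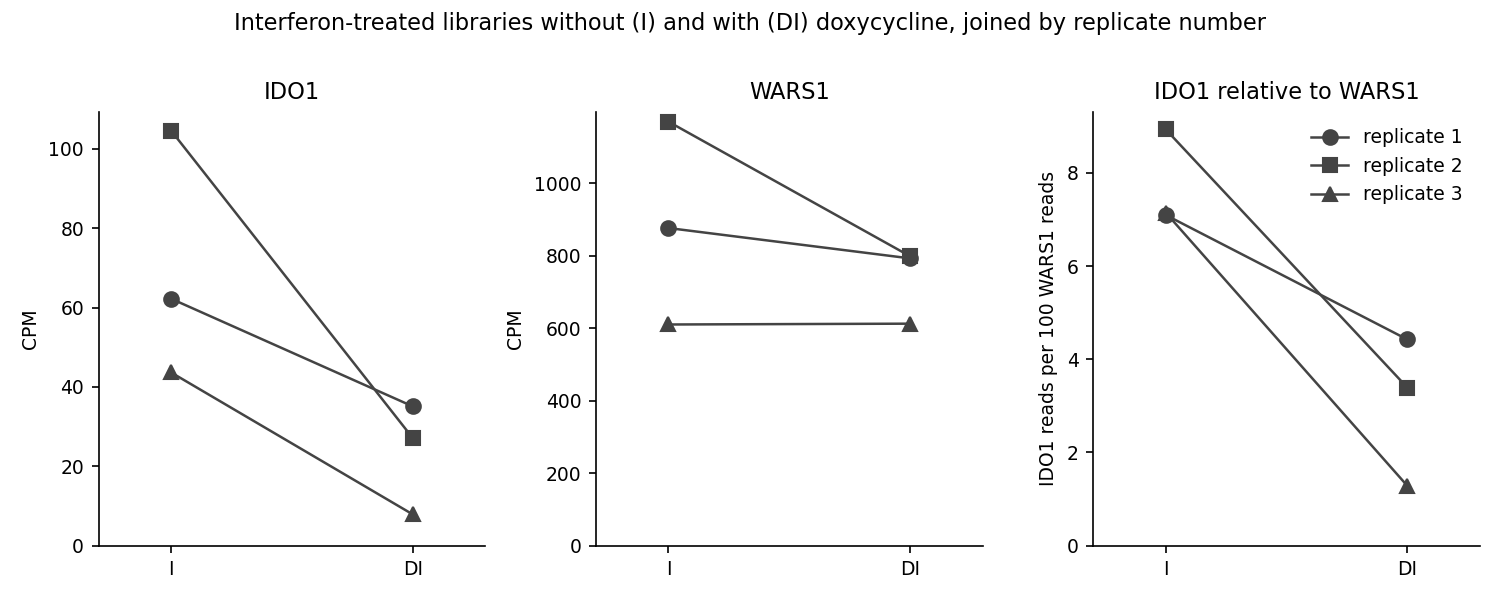
IDO1 (CPM), WARS1 (CPM) and IDO1 reads per 100 WARS1 reads in the 3 I and 3 DI libraries, with libraries of the same replicate number joined; axes are linear and start at 0. IDO1 is lower in DI along all 3 lines, at 7.88 to 35.1 CPM beside 43.7 to 105 CPM in I, whereas WARS1 is lower along 2 and level along the third.

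The test of whether the IFNγ response itself differed with doxycycline, the interaction of both agents, called no gene, 0% of 15828 by edgeR (99 genes at an unadjusted p under 0.05) and 1 gene by DESeq2, and none of the 3 members with an estimate had an unadjusted p under 0.05. WARS1 was at -0.60 on the log2 scale (SE 0.41, 95% interval -1.50 to 0.30), KYAT3 at -0.27 (SE 0.19, interval -0.69 to 0.15) and AFMID at 0.22 (SE 0.22, interval -0.27 to 0.71), each with an adjusted p of 1. For IDO1 and IDO2 no interaction can be estimated, since C and D are at 0.

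Genes that overlap the members can share their reads. RBMXL1, an RNA-binding protein gene, overlaps KYAT3 on the same strand with 469 shared exonic bases and a start 7 bases away. It was at 38.3 to 40.6 CPM in C and 63.8 to 76.6 CPM in I, a change of 0.82 (SE 0.14, adjusted p = 0.00671), and rose in DI against D as well (0.75, SE 0.14, adjusted p = 0.0166). That second call was lost with only the groups compared (adjusted p = 0.161) and without D replicate 3, DI replicate 1 or DI replicate 3 (up to 0.0857). Without replicate number 1 or 3 in every group both calls were lost (0.223 and 0.108 in I against C, 0.293 and 0.225 in DI against D). KYAT3 had 51.3 ± 1.61 reads per 100 RBMXL1 reads in C and 52.4 ± 4.14 in I (SD, n = 3, exact permutation p = 0.7). A test of 3 against 3 libraries cannot show that the pair rose in proportion. With doxycycline the ratio was 71.5 ± 10.7 in D and 63.4 ± 9.32 in DI (SD, n = 3, exact permutation p = 0.4). In D the ratio was 65.4, 83.8 and 65.3 against 52.3, 52.1 and 49.5 in C, without overlap (exact permutation p = 0.1). Reads from the shared part cannot be assigned to one of the pair with certainty.

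WDR25, a WD-repeat protein gene, overlaps the start of WARS1 on the opposite strand with 287 shared exonic bases. It rose from 4.36 to 5.80 CPM in C to 8.54 to 12.6 CPM in I (1.09, SE 0.21, adjusted p = 0.0195). The call in I against C was lost with only the groups compared (adjusted p = 0.0764). It was also lost without C replicate 1, C replicate 2, I replicate 1 or I replicate 2 (up to 0.117). The same held without any 1 replicate number in every group (up to 0.504). WDR25 was called in DI against D as well (1.01, SE 0.21, adjusted p = 0.0363). That second call was lost in 7 of the 12 fits that leave out 1 library (up to 0.147). Per 100 WARS1 reads, WDR25 had 8.87 ± 0.313 reads in C and 1.22 ± 0.165 in I (SD, n = 3, exact permutation p = 0.1). Its reads thus did not keep pace with those of WARS1. TK1, the thymidine kinase gene that starts 84 bases from AFMID on the other strand with no shared exonic base, was not called in any comparison (in D against C, -0.37, SE 0.16, adjusted p = 0.339, and 0.0432 under the replicate block). ASIC5, SFXN4P1 and LOC100420944, which overlap TDO2, KYNU and IDO2, were at 0 in every library. The other annotated overlaps, antisense, intronic and pseudogene transcripts, were not analysed here. The strand setting of the counting is not given in the sources used here.

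**Figure D4:**
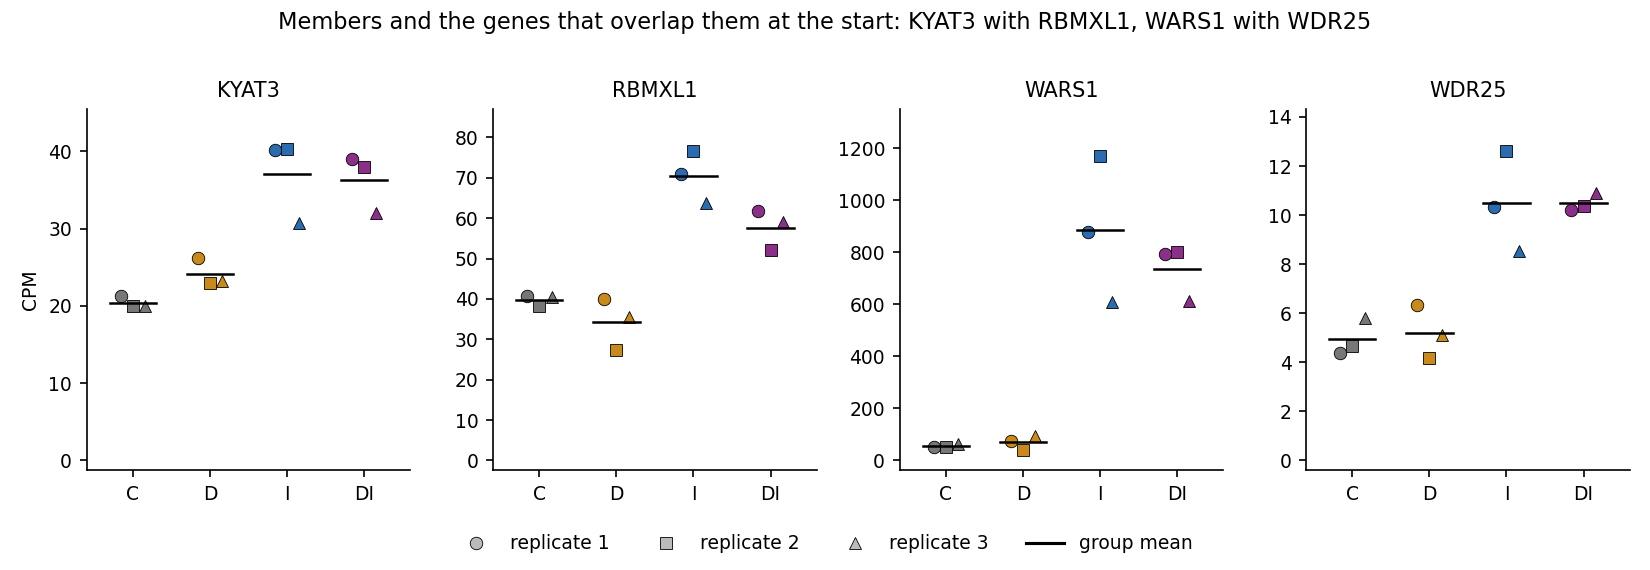
CPM of KYAT3 and RBMXL1 and of WARS1 and WDR25 in the 12 libraries (linear axes from 0, scaled per panel), with symbols for the replicate number and bars for group means. All 4 genes are higher in every library of I than in every library of C, and RBMXL1 is 38.3 to 40.6 CPM in C and 63.8 to 76.6 CPM in I.

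WARS1 was the only 1 of 20 cytosolic aminoacyl-tRNA synthetase genes called in I against C. None of the 19 other cytosolic aminoacyl-tRNA synthetase genes was called in I against C, DI against D, D against C or DI against I by edgeR. Their log2 fold changes in I against C ran from -0.34 to 0.25 with a median of -0.14, beside a median of -0.01 over all tested genes and 3.99 for WARS1. By level per kilobase, WARS1 was rank 18 of the 20 genes in C and D and rank 1 in I and DI. Its reads per 100 reads of the other 19 together were 1.43, 1.55 and 1.76 in C and 26.2, 35.2 and 18.7 in I (exact permutation p = 0.1). In DI they were 19.1, 23.0 and 13.4, a range that overlaps with I (exact permutation p = 0.3).

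In the comparison of doxycycline alone, the other 19 genes summed to 3415 to 3575 CPM in C and 3661 to 5272 CPM in D, and 14 of the 19 had a log2 fold change above 0 (median 0.34, beside -0.0012 over all tested genes). None was called by edgeR, whereas under the replicate block 8 were called higher and 1 lower in D against C and 6 higher and 2 lower in DI against I. GARS1, the glycyl-tRNA synthetase, had the largest fitted change among them in D against C, 0.71 (SE 0.19, adjusted p = 0.111, 0.0216 with the block and 0.0180 in DESeq2, and a change of 0.46 without D replicate 3); it was singled out after its value was seen. WARS1 had 1.73, 1.12 and 1.78 reads per 100 of theirs in D, a range that overlaps with C (exact permutation p = 0.9 against C).

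**Figure D5:**
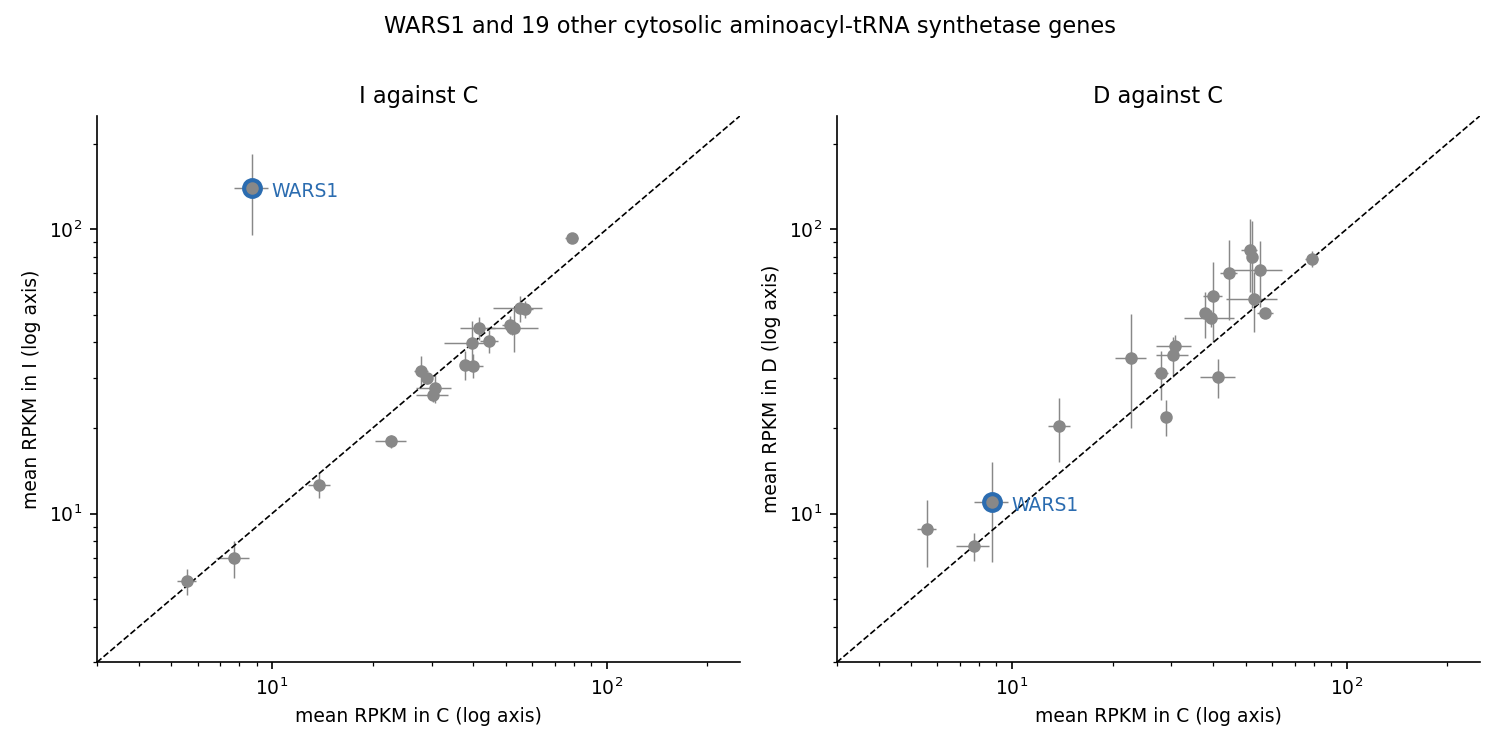
Mean level in RPKM of WARS1 (blue) and 19 other cytosolic aminoacyl-tRNA synthetase genes (grey), I against C and D against C, on log axes with SD bars over 3 libraries and a dashed line of equality. WARS1 goes from 8.74 RPKM in C to 139 RPKM in I while the other 19 stay near the line.

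The other genes of tryptophan use gave few calls. Of 7 further kynurenine-branch genes, 5 were tested and none was called in any comparison, while the replicate block gave 1 lower call each in D against C and DI against I. QPRT, which makes the NAD precursor from quinolinic acid, was at 187 to 228 CPM throughout, and KYAT1 and AADAT, other kynurenine aminotransferases, had log2 fold changes of 0.06 (SE 0.10) and -0.12 (SE 0.21) in I against C, beside 0.86 for KYAT3. HAAO and ACMSD, which act after KYNU, were at most at 0.290 CPM in any library and were not tested. Of 8 NAD synthesis genes, 6 were tested and NAMPT, the rate-limiting enzyme of NAD salvage, was called in I against C (0.85, SE 0.19, adjusted p = 0.0464). That call was lost in 9 of the 12 fits that leave out 1 library, with an adjusted p of up to 0.220 (without C replicate 1 or 2, D replicate 2 or 3, any I replicate, or DI replicate 1 or 3), with library size alone (0.0662), and without any 1 replicate number in every group (up to 0.426). Under the replicate block 2 of the 6 were called higher in I against C and 1 in DI against I.

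None of the 3 tested genes of the serotonin branch (of 7) was called in any comparison. DDC, the aromatic amino acid decarboxylase, was at 130 to 161 CPM in C and 151 to 178 CPM in I, and MAOA was at 354 to 708 and 246 to 601 CPM. None of the 6 tested genes (of 9) for transport of tryptophan or kynurenine was called by edgeR. Under the replicate block, 3 were called higher and 1 lower in D against C and likewise in DI against I. SLC7A5, the light chain of the large neutral amino acid transporter, was at 160, 119 and 201 CPM in C and 383, 185 and 758 CPM in D (1.46, SE 0.51, adjusted p = 0.215, 0.00832 with the block and 0.0378 in DESeq2). SLC3A2, its heavy chain, was at 106 to 109 CPM in C and 138 to 332 CPM in D (1.01, SE 0.30, adjusted p = 0.145, 0.0342 with the block and 0.0230 in DESeq2). Without D replicate 3 the changes of SLC7A5 and SLC3A2 were 0.83 and 0.56. SLC7A11, the light chain of the cystine and glutamate exchanger, was at 2.70, 1.79 and 1.62 CPM in C and 33.4, 7.66 and 114 CPM in D, without overlap (4.66, SE 1.03, adjusted p = 0.0591, and 9.46e-05 to 0.608 over the alternatives). It was 0.00892 with the block, and the change was 3.33 without D replicate 3. In DI against I, SLC7A11 was at 3.36 (SE 0.95, adjusted p = 0.173, and 0.0354 with the block). These 3 genes were singled out after their values were seen. In I against C SLC7A5 and SLC3A2 had log2 fold changes of -0.66 (SE 0.50) and -0.30 (SE 0.29).

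The aryl hydrocarbon receptor, AHR, which kynurenine can bind, was at 0 to 2.99 CPM across the libraries. Of 8 genes of the receptor and its targets, 6 were tested and none was called in I against C, against 1 higher under the replicate block. CYP1B1, a target, was at 0.810 to 2.95 CPM in C and 2.20 to 7.08 CPM in I (1.39, SE 0.55, adjusted p = 0.467). ARNT, its partner, was called in D against C (0.40, SE 0.08, adjusted p = 0.0437), but in none of the 12 fits that leave out 1 library (adjusted p 0.0539 to 0.214), nor without a filter (0.170) or with only the groups compared (0.236). EIF2AK4 and GCN1, which sense uncharged tRNA, and WARS2, the mitochondrial tryptophanyl-tRNA synthetase, were tested and not called in any comparison, with 1 of the 3 called higher in D against C under the replicate block. WARS2 was at 7.65 to 14.5 CPM.

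Of 7 genes of the IFNγ signalling chain, 4 were called higher in I against C and the same number in DI against D. Among those in I against C were JAK2 (2.89, SE 0.27, adjusted p = 8.22e-05), IRF1 (7.58, SE 0.18, adjusted p = 2.75e-09) and SOCS1, the feedback inhibitor (5.89, SE 0.51, adjusted p = 3.88e-05). None of the 7 was called in DI against I, where the median was -0.25 (beside -0.01 over all tested genes) and IDO1 was at -1.59. In that contrast IRF1 was at 381, 409 and 442 CPM in I and 376, 342 and 383 CPM in DI (-0.16, SE 0.13). SOCS1 was at 45.7, 54.2 and 54.8 CPM in I and 32.0, 23.9 and 28.2 CPM in DI, which do not overlap (-0.88, SE 0.39, adjusted p = 0.401).

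Among the 5 genes whose levels followed those of IDO1 most closely over the 12 libraries, of 13960 tested genes with a mean of at least 1 CPM, were IFITM1, SAMD9, APOL3 and SP110 (Pearson r of log2 CPM 0.994 to 0.996). Among the 5 for WARS1 were CSF1, PIR, OAS3 and PLAAT4 (r 0.987 to 0.990). These r values are descriptions, since the 12 libraries fall into 6 with IFNγ and 6 without and share their depth scaling.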

How the data were processed

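RNA was sequenced as paired-end reads on an Illumina instrument. The authors deposited a table of raw counts per gene for 12 libraries, with Ensembl gene IDs and symbols; the aligner, counter and strand setting are not given in the sources used here, and the submitters' processing notes name DESeq2 without a version. Another 18 columns of that table, which match no sample's labels, were not used, nor were the authors' own comparison tables, which hold fold changes and p-values. The members and all gene lists were chosen with earlier results of these data known.

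Counts were tested with edgeR 4.0.16 (quasi-likelihood, TMM scaling, filterByExpr with a minimum count of 10, 1 model over 4 groups) in R 4.3.3, with Benjamini-Hochberg adjustment over the 15828 genes tested and calls at 0.05. CPM use TMM-scaled library sizes, and RPKM divide CPM by the exon union length in GENCODE 29, in which all 43769 gene IDs were found. The log2 fold changes of genes at 0 in a group are replaced by bounds from 3 counts. Single values were compared by exact permutation tests. The script was tested on simulated data. Intervals are 95%.

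Libraries of the same replicate number deviated together from their group means (Pearson r 0.321 to 0.839 in all 18 pairs, against -0.663 to 0.183 in 36 pairs of other numbers), so the numbers were taken to pair the libraries; the labels share numbers without saying what they mark. The model without the number is the one reported, and the blocked value stands beside a result where it changes a call.

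All 8 members were described. For IDO1 and WARS1, the 5 genes of highest Pearson r over the 12 libraries (log2 of CPM plus 0.5) were named; of each list, called genes up to 4; and genes that overlap a member or start within 1 kb. Results that name some of these genes, 1 ratio whose I and DI values overlapped among them, are not reported here. Alternatives were DESeq2 1.42.0, DESeq2 size factors, library size alone, no filter, a threshold of 0.01, only the groups compared, the replicate block, leaving out each library, and, chosen after seeing the data, leaving out each replicate number.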

Additional observations from a re-analysis of the deposited data

How the results depend on the processing

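For 21 fold changes or bounds and 5 counts of called members, 542 alternative values were computed; 521 kept their direction and side of the threshold, or stayed within 1.5 times for counts. With the replicate number as a block, the count of members called in DI against I was 1 (IDO1) instead of 0, and IDO2 in I against C and KYAT3 in DI against D were gained; the block changed no other call of a member. Leaving out libraries gave 1 to 3 members called in I against C (1, WARS1, without replicate 1 in every group), 0 to 3 in DI against D (0 without replicate 1 and 1 without replicate 2 in every group), and 0 in D against C, DI against I and the interaction. No single library left out ended a call of IDO1, WARS1 or KYAT3. Without replicate 1 in every group the adjusted p was 0.0770 for IDO1 and 0.242 for KYAT3 in I against C, and 0.171 for IDO1 and 0.0549 for WARS1 in DI against D. Without replicate 2 in every group it was 0.155 for KYAT3 in I against C and 0.0718 for IDO1 in DI against D. Values near 0 changed sign: KYAT3 in DI against I was 0.062 with scaling by library size alone and -0.13 to 0.053 over the fits without a library (0.038 without I replicate 1, 0.034 without I replicate 2, 0.053 without DI replicate 3, 0.0083 without replicate 2), and AFMID in DI against D was -0.25 to 0.020 (0.020 without DI replicate 1). The cause of these changes was not tested.

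Over all genes, the replicate block called 773 higher and 180 lower in I against C (332 and 18 without it), 986 and 1214 in D against C (78 and 116), 610 and 1048 in DI against I (16 and 90) and 596 and 110 in DI against D (265 and 8). DESeq2 called 482 and 48, 305 and 344, 155 and 305, and 385 and 20 in the same order, and the model of only the groups compared called 320 and 12, 1 and 15, 0 and 0, and 203 and 4. With library size alone, 199 higher and 89 lower were called in D against C and 54 and 65 in DI against I. Without a filter, 37 higher and 82 lower were called in D against C. At this depth TDO2, KYNU and KMO did not pass the filter and their changes were not tested, and IDO2 rests on at most 31 reads in a library.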
